A study of Mus musculus with 12 samples.

Results

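Ttyh1, Nipal2, Glod5 and Mmd2 were 4 of the 23185 genes with 1 symbol on arrays of livers from 5-day-old mice. They were chosen by their measured log2 change after loss of the kinase gene Lkb1, which differed from that after loss of RbpJk, the transcription factor of the Notch pathway. Their rows were found by Entrez number (57776, 223473, 69824 and 75104), and each had 1 probe set. The choice therefore rested on the values of all 4 groups, so the levels and changes of the 4 genes are given below as a description. The models fitted across all genes include them, but no p value or call of theirs in these contrasts is used. For Mmd2 the choice did not rest on a clear change in the Lkb1 arm: its levels in LKB1 KO and LKB1 WT livers overlapped, and its difference came mostly from a lower level in RbpJk KO livers.

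Each of 2 arms held 3 KO and 3 WT livers, 1 array each, named LKB1 KO and LKB1 WT or RbpJk KO and RbpJk WT after the gene deleted. KO mice carried Cre and had a liver-specific deletion of Lkb1 (gene symbol Stk11) or of RbpJk (Rbpj), and the WT mice of each arm lacked Cre. All 12 mice are labelled male and 5 days old. No source used here gives the Cre line, the alleles that the controls carry, the litters or any pooling of animals, so adjusted p values measure the spread between these arrays only. The arrays read RNA of whole liver, in which fewer cells of a type and less RNA per cell cannot be told apart.

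Lkb1 is an upstream kinase that activates AMPK and the AMPK-related kinases, among them the salt-inducible kinases, which in liver restrain the Crtc coactivators of Creb. Ttyh1 belongs to the tweety family of multi-pass membrane proteins and is best known from brain and glia. Nipal2 belongs to the NIPA family, several members of which carry magnesium across membranes. Glod5 is a little studied protein with the fold of glyoxalase I, the enzyme that clears methylglyoxal, and Mmd2 (also named Paqr10) is a Golgi membrane protein of the progestin and adipoQ receptor (PAQR) family.

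The RefSeq promoter table (build GRCm38.p6) held an entry for 2 of the 4 genes, Ttyh1 and Mmd2. The 250 bases before the start of each are shown because these genes stood apart in different arms, Ttyh1 in LKB1 KO and Mmd2 in RbpJk KO, and their letters can be set side by side. Capitals mark the GC box GGGCGG, or CCGCCC where it lies on the other strand, a motif chosen after the sequences were seen. The Ttyh1 stretch is chr7:4119280-4119529 on the plus strand and the Mmd2 stretch is chr5:142608753-142609002 on the minus strand.
Ttyh1: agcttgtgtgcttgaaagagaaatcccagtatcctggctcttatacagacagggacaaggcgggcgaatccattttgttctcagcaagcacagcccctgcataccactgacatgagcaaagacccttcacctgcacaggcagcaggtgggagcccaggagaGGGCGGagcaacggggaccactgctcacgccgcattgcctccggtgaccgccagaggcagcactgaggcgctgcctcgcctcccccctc
Mmd2: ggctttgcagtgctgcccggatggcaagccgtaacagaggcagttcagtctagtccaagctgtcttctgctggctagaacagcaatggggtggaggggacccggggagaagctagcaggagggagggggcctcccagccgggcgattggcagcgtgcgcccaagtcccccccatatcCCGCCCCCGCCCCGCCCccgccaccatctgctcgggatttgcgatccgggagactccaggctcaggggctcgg
Over the window of 300 bases, which adds 50 bases after the start, G and C made up 63.3% in Ttyh1 and 67% in Mmd2, against a median of 52.7% over 32851 promoters. Searched on both strands, the GC box occurred once in Ttyh1, with its first base at -89, and at 3 places in Mmd2, at -73, -67 and -62, in 1 run. It was present in 35.7% of all promoters. Neither window held the Creb site TGACGTCA (1.79% of promoters) or the shorter TGACG inside it (20.8%), the Foxo letters TGTTTAC (3.65%) or TGTTTA inside it (13.4%), or the RbpJk letters TGGGAA (25.6%).

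Values are log2 expression as deposited, and a call is a limma adjusted p under 0.05 over all 23185 genes. The targeted genes followed the labels in their means. Stk11 stood at 7.55 ± 0.03 (SD, n = 3) in LKB1 WT and at 6.75 ± 0.33 in LKB1 KO (-0.80 ± 0.15 SE, adjusted p = 0.0224, a call lost in 6 of 22 alternative settings), and Rbpj went from 5.07 ± 0.24 to 4.34 ± 0.36 in the RbpJk arm without passing the test (-0.73 ± 0.19, adjusted p = 0.0724). RbpJk WT 1 stood apart: the stomach trefoil gene Tff2 was 10.39 there and at most 4.12 on the other 11 arrays, and the pancreatic gene Ctrb1 was 10.44 there and at most 6.75 elsewhere. Xist, which marks an inactive X chromosome, was high on 6 arrays (10.63 to 10.75) and low on 6 (3.81 to 5.09), and the Y-linked Eif2s3y was high exactly where Xist was low (7.23 to 7.95 against 2.30 to 2.94). The high-Xist arrays, which go against the label male, were all 3 LKB1 WT, LKB1 KO 3, and RbpJk WT 1 and 3, with 0 of the 3 RbpJk KO. The changes of the 4 genes are given with and without these arrays further on.

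Ttyh1 had the largest difference of the 4 genes between LKB1 KO and LKB1 WT livers. Its log2 level was 5.25, 5.47 and 5.25 in LKB1 WT replicates 1 to 3, and 7.97, 7.53 and 7.98 in LKB1 KO replicates 1 to 3. In the RbpJk arm it was 5.52, 5.78 and 4.72 in WT and 5.28, 5.20 and 5.39 in KO. All 3 LKB1 KO arrays lay above the other 9, of which the highest was an RbpJk WT array at 5.78, and the other 3 groups overlapped. The group means, from low to high, were 5.29 ± 0.09 in RbpJk KO, 5.32 ± 0.13 in LKB1 WT, 5.34 ± 0.55 in RbpJk WT and 7.82 ± 0.26 in LKB1 KO (SD, n = 3 each). The LKB1 KO level was 2.50 ± 0.22 (SE) log2 units, or 5.66-fold, above LKB1 WT, the 6th largest positive change of 23185 genes. The corresponding change in RbpJk KO was -0.05 ± 0.22.

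Nipal2 was likewise higher in LKB1 KO than in LKB1 WT livers, but dim. All of its group means lay below the array medians of 4.84 to 5.01, so the fold change may be compressed. Its log2 level was 2.98, 3.04 and 2.95 in LKB1 WT and 4.70, 4.30 and 4.86 in LKB1 KO. In RbpJk WT it was 3.62, 3.35 and 3.00, and in RbpJk KO 3.07, 3.24 and 2.68. The LKB1 WT arrays were within 0.1 of each other, and the lowest LKB1 KO array lay above all 9 others. Means were 2.99 ± 0.05 in LKB1 WT, 3.00 ± 0.28 in RbpJk KO, 3.33 ± 0.31 in RbpJk WT and 4.62 ± 0.29 in LKB1 KO, and the first 3 of these groups overlapped. Nipal2 was 1.63 ± 0.20 log2 units (3.09-fold) above its controls in the Lkb1 arm, rank 17 from the top. In the RbpJk arm it was -0.33 ± 0.20, with overlapping groups.

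Glod5 had the widest spread of the 4 genes among the LKB1 KO arrays. Its log2 level was 4.03, 3.29 and 3.48 in LKB1 WT and 5.86, 4.55 and 6.22 in LKB1 KO. In RbpJk WT it was 4.35, 3.46 and 3.40, and in RbpJk KO 4.20, 3.37 and 3.52. LKB1 KO 2, at 4.55, was only just above the highest of the other 9 arrays, RbpJk WT 1 at 4.35. Means were, from low to high, 3.60 ± 0.38 in LKB1 WT, 3.70 ± 0.44 in RbpJk KO, 3.74 ± 0.53 in RbpJk WT and 5.54 ± 0.88 in LKB1 KO, with the first 3 groups overlapping. The means of those 3 groups, and LKB1 KO 2, lay below the array medians of 4.84 to 5.01, so the fold change of Glod5 may be compressed too. The change in the Lkb1 arm was 1.94 ± 0.38 (3.85-fold, rank 12 from the top), and 2.44 without LKB1 KO 2. In the RbpJk arm it was -0.04 ± 0.38.

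Mmd2 showed the other pattern. Its log2 level was 8.58, 8.12 and 8.26 in LKB1 WT and 8.95, 8.45 and 8.78 in LKB1 KO, where the lowest KO array lay within the range of the controls. In RbpJk WT it was 8.77, 8.02 and 8.70, and in RbpJk KO 6.56, 7.27 and 6.87, below all 9 other arrays. Means were 6.90 ± 0.35 in RbpJk KO, 8.32 ± 0.24 in LKB1 WT, 8.50 ± 0.41 in RbpJk WT and 8.73 ± 0.25 in LKB1 KO, the last 3 overlapping. The RbpJk KO level was lower than its controls by 3.02-fold (-1.60 ± 0.21), rank 31 from the most negative change, while the LKB1 KO level differed by 0.41 ± 0.21 (1.33-fold), rank 611 from the top.

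**Figure D1:**
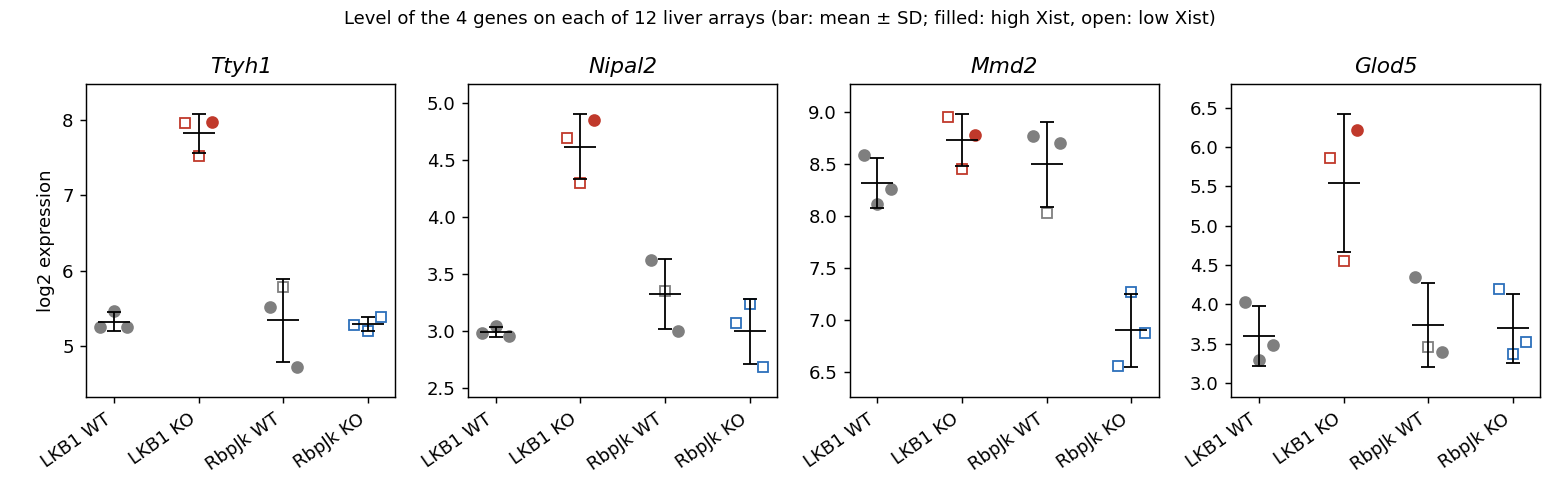
Log2 expression of each gene (vertical axes, 1 panel a gene) on the 12 arrays by group, each point 1 array, with the mean and SD of 3 arrays as bars, filled circles for arrays with high Xist and open squares for arrays with low Xist. LKB1 KO arrays of Ttyh1, Nipal2 and Glod5 lie above all others, the lowest of Glod5 at 4.55 just above 4.35, while for Mmd2 the RbpJk KO arrays lie below all others.

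Set side by side, the 2 changes gave differences (Lkb1 arm minus RbpJk arm, log2) of 2.55 ± 0.31 for Ttyh1, 2.0 ± 0.30 for Mmd2, 1.98 ± 0.54 for Glod5 and 1.96 ± 0.28 for Nipal2. These were ranks 3, 7, 9 and 12 of 23185 in the positive direction. LKB1 KO arrays lay above all LKB1 WT arrays for 3 of the 4 genes and for 7.77% of all genes, and RbpJk KO arrays lay below all RbpJk WT arrays for Mmd2 and for 8% of all genes. As the same values chose the 4 genes, nothing is read from these counts.

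The genes next to them in that order were of several kinds. Tff2 (2.64) and Lypd8 (2.40) stood around Ttyh1, Redrum (2.03) and Cym (1.99) around Mmd2, Cym and Cyp7a1 (1.97), which opens the classic route from cholesterol to bile acids, around Glod5, and Muc6 (1.96) and Dpt (1.92), an extracellular matrix protein, around Nipal2. Tff2, Lypd8, Cym and Muc6, which are products of the stomach or gut lining, were each high on RbpJk WT 1 and low on the other 11 arrays (Muc6 at 9.37 against at most 4.69, for example), so their differences came from that array. Nipal2 (3.62), Glod5 (4.35) and Mmd2 (8.77) also had their highest level of the RbpJk arm on that array, but within 1 log2 unit of both other RbpJk WT arrays, and Ttyh1 did not. Without RbpJk WT 1 their differences were 2.46 for Ttyh1, 1.81 for Nipal2, 1.87 for Mmd2 and 1.68 for Glod5.

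**Figure D2:**
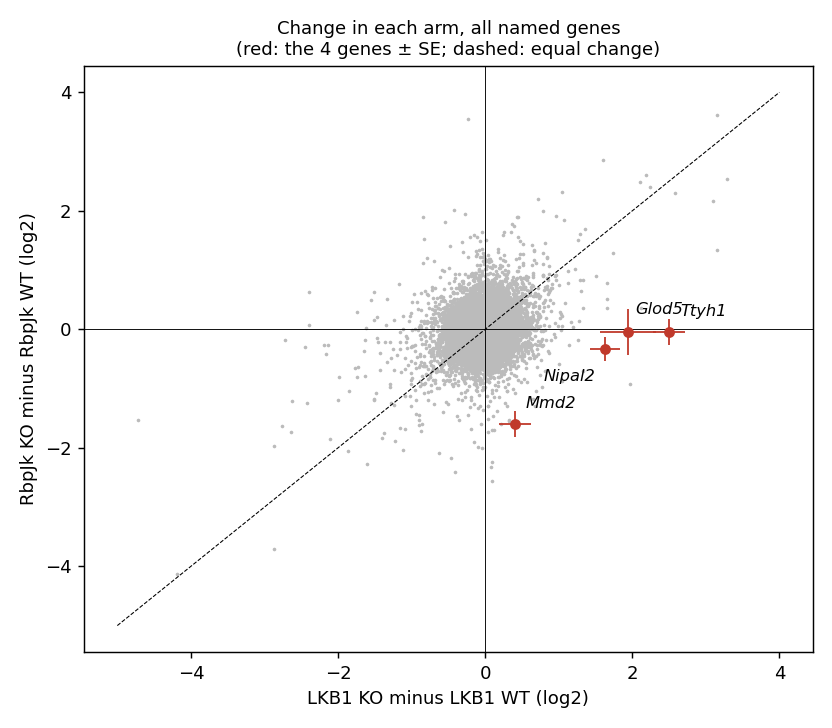
Change in the Lkb1 arm (horizontal axis, LKB1 KO minus LKB1 WT, log2) against change in the RbpJk arm (vertical axis, RbpJk KO minus RbpJk WT, log2) for all 23185 genes in grey, with the 4 genes in red with their SE and a dashed line of equal change. Ttyh1 (2.50, -0.05), Glod5 (1.94, -0.04) and Nipal2 (1.63, -0.33) lie to the right along the line of no RbpJk change, and Mmd2 (0.41, -1.60) lies below it.

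Levels in the control livers of the arms were close. LKB1 WT minus RbpJk WT was -0.02 for Ttyh1, -0.33 for Nipal2, -0.14 for Glod5 and -0.18 for Mmd2, and the ranges of the control groups overlapped for each gene. LKB1 KO minus RbpJk KO was 2.53, 1.62, 1.85 and 1.83 in the same order.

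Array by array, LKB1 KO 2 was nearest to the controls for all 4 genes. Relative to the mean of LKB1 WT, Ttyh1 was 2.64, 2.21 and 2.65 log2 units higher on LKB1 KO 1, 2 and 3, and Nipal2 was 1.71, 1.31 and 1.87 higher. Glod5 was 2.25, 0.95 and 2.62 higher, and Mmd2 was 0.63, 0.14 and 0.46 higher. LKB1 KO 2 was the lowest of the 3 KO arrays in 40.2% of the 97 genes called higher and in 34.7% of all genes. Its Stk11 level was 6.85, between 7.03 on LKB1 KO 1 and 6.38 on LKB1 KO 3, so the order of Stk11 over the 3 arrays was not that of the 4 genes. Mmd2 was below its control mean on RbpJk KO 1, 2 and 3 alike (-1.93, -1.23 and -1.62).

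The 2 features by which arrays stood apart moved the sizes and not the side of the larger changes. Among high-Xist arrays, which leave LKB1 KO 3 against the 3 LKB1 WT, the changes were 2.65 for Ttyh1, 1.87 for Nipal2, 2.62 for Glod5 and 0.46 for Mmd2. Among low-Xist arrays, which leave the 3 RbpJk KO against RbpJk WT 2, they were -0.49 for Ttyh1, -0.35 for Nipal2, 0.24 for Glod5 and -1.12 for Mmd2. With Xist class in the model, the level on high-Xist minus low-Xist arrays of the same group was -0.21 ± 0.23 for Ttyh1, 0.16 ± 0.21 for Nipal2, 0.39 ± 0.21 for Mmd2 and 0.72 ± 0.37 for the X-linked Glod5 (SE, adjusted p = 0.997 for each). That term was called for 4 genes, 0.0173% of those tested, which were Xist, Eif2s3y, Kdm5d and Uty, and none of the 4 genes described here was among them. Only LKB1 KO and RbpJk WT held both classes, so the term rests on 6 arrays. Without RbpJk WT 1 the RbpJk changes were 0.04 for Ttyh1, -0.18 for Nipal2, 0.27 for Glod5 and -1.46 for Mmd2.

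Relatives of the 4 genes were read together with genes of like function, and both are called relatives here. They include 18 other anion channel genes, 14 other magnesium transport genes and 10 relatives and partners of Glod5. The counts over all of them therefore do not show whether a family moved as a whole. Of 59 relatives, 0 were called in the Lkb1 arm, where 0.962% of all genes were called (0.418% higher), and 5 had an unadjusted p under 0.05, against 8.05% of all genes. In the RbpJk arm 2 were called higher and 1 lower, against 1.12% and 0.565% of all genes (1.68% in all), and 13 of the 59 had an unadjusted p under 0.05, against 14.5%. For the difference 0 were called, against 0.181% of all genes (0.0518% with the Lkb1 change the higher), and 11 had an unadjusted p under 0.05, against 9.13%. Their median change was -0.01 in the Lkb1 arm and -0.06 in the RbpJk arm, against -0.01 and -0.03 over all genes. No test of the relatives as a group was run. Counts of unadjusted p under 0.05 in the smaller lists that follow are to be read against the same all-gene shares.

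In the tweety family, Ttyh2 and Ttyh3, whose products like Ttyh1 span the membrane several times, changed by 0.25 ± 0.15 (adjusted p = 0.833) and -0.02 ± 0.10 in the Lkb1 arm, and neither was called in any contrast. Tweety proteins were long described as anion channels, and of 18 other anion channel genes 0 were called in the Lkb1 arm (0 unadjusted) or for the difference (4 unadjusted). After loss of RbpJk 1 of the 18 passed (5 unadjusted), Ano6, a calcium-activated scramblase and channel (0.50 ± 0.12, adjusted p = 0.046), a call that was lost in 15 of 22 alternative settings. Cftr, the cyclic AMP-gated chloride channel, had the widest values of that list (0.41 in the Lkb1 arm and -1.08 in the RbpJk arm), with neither called and its RbpJk WT level at 3.56 ± 1.51.

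Of 5 other NIPA genes, 0 were called in either arm or for the difference (0 unadjusted in each), and their changes in the Lkb1 arm ran from -0.33 (Nipal4, a gene of the skin barrier) to 0.06 (Nipal1). Among 14 other magnesium transport genes, 0 were called in the Lkb1 arm (3 unadjusted) and 11 had a change above 0, with a median of 0.14. Mmgt2, a membrane magnesium transporter, had the largest of these, 0.79 ± 0.19 (adjusted p = 0.0849). In the RbpJk arm 1 of the 14 was called (2 unadjusted), and for the difference 0 (3 unadjusted). Slc41a2, a magnesium carrier, rose in the RbpJk arm 2.70-fold (1.43 ± 0.17, adjusted p = 0.000518), from 5.68 ± 0.17 to 7.11 ± 0.21. Its change in the Lkb1 arm was 0.51 ± 0.17 (adjusted p = 0.291), and the difference was not called (-0.92 ± 0.24, adjusted p = 0.188).

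Glod5 has 10 measured relatives and partners in the removal of methylglyoxal, of which 0 were called in the Lkb1 arm (1 unadjusted). In the RbpJk arm 1 was called (5 unadjusted), and for the difference 0 (1 unadjusted). Glo1, glyoxalase I itself, changed by -0.10 ± 0.14 in the Lkb1 arm and by -0.06 ± 0.14 in the RbpJk arm, and passed neither test. Hagh, glyoxalase II, fell in RbpJk KO livers from 9.21 ± 0.10 to 8.40 ± 0.20 (1.76-fold lower, -0.81 ± 0.11, adjusted p = 0.00168). In LKB1 KO livers Hagh changed by -0.21 ± 0.11 (adjusted p = 0.750), and the difference was not called (0.61 ± 0.16, adjusted p = 0.188). Haghl, a relative of Hagh, had the largest value of the list in the Lkb1 arm (-0.40 ± 0.15, adjusted p = 0.381).

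None of the 10 other PAQR genes was called in either arm or for the difference (1, 1 and 3 unadjusted). Mmd, the closest named relative of Mmd2, changed by -0.54 ± 0.15 in the Lkb1 arm (adjusted p = 0.172) and by 0.02 ± 0.15 in the RbpJk arm. Paqr9 changed by -0.40 ± 0.10 in the RbpJk arm (adjusted p = 0.0542). The adiponectin receptors Adipor1 and Adipor2 stayed between -0.13 and 0.16 in both arms, without a call.

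**Figure D3:**
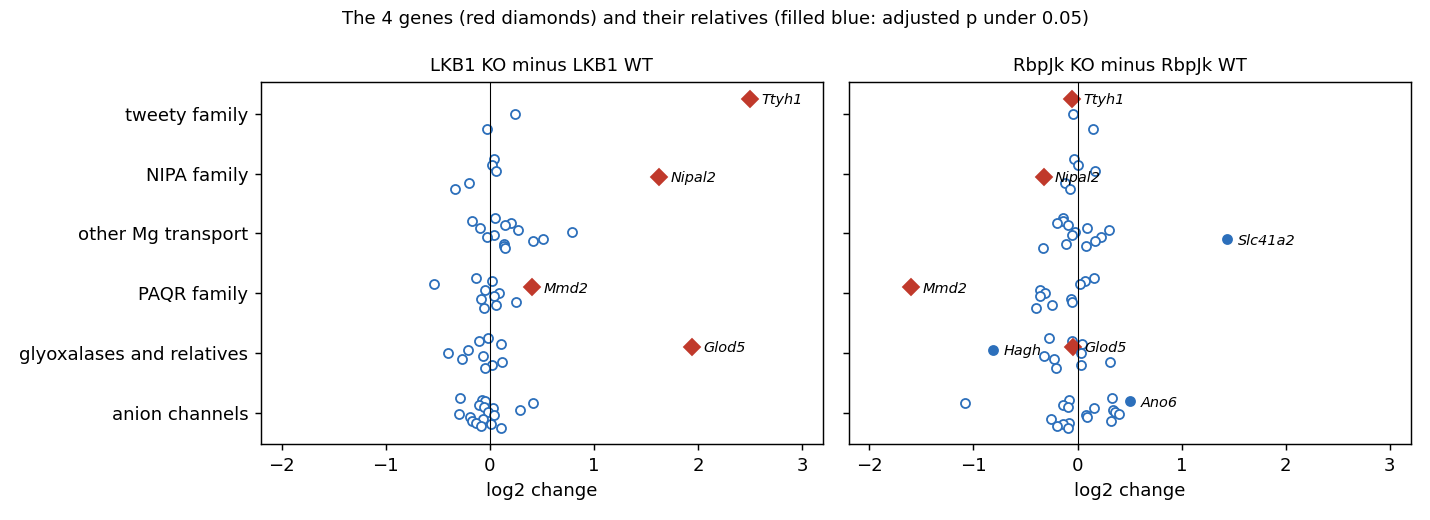
Log2 change of the 4 genes (red diamonds) and of their relatives and genes of like function (blue circles, filled where the adjusted p was under 0.05) by list, with the Lkb1 arm on the left and the RbpJk arm on the right. In the Lkb1 arm Ttyh1 (2.50), Nipal2 (1.63) and Glod5 (1.94) lie outside the range of the relatives, -0.54 to 0.79. As these same changes chose them, nothing is read from that. In the RbpJk arm the filled circles are Slc41a2, Hagh and Ano6.

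Mmd2 was also among 6 genes for which the study lists PCR primers. By RT-qPCR on livers of fasted adult mice of another model, with Lkb1 deleted in hepatocytes, the study reported that several Foxo1 targets were higher. Its text does not say which of the 6 these were, and age, feeding and assay differ from the arrays here. Of the other 5, 0 were called in the Lkb1 arm, and 4 had an unadjusted p under 0.05, against 8.05% of all genes. The 4 went both ways, with Etnppl and Igfbp1 lower and Ppargc1a and G6pc higher. There Etnppl, a phosphoethanolamine phospholyase, changed by -0.57 ± 0.15 (adjusted p = 0.116), Igfbp1, an insulin-repressed binding protein, by -0.56 ± 0.15 (adjusted p = 0.124), and Ppargc1a, a coactivator of gluconeogenic genes, by 0.45 ± 0.19 (adjusted p = 0.540). Etnppl fell in RbpJk KO livers, where Mmd2 was lower too (-0.86 ± 0.15, adjusted p = 0.0081, a call lost in 3 of 22 alternatives), and the other 4 were not called. Pck1 and G6pc, enzymes of gluconeogenesis, changed by 0.07 and 0.28 in the Lkb1 arm and by -0.10 and 0.08 in the RbpJk arm. Of 27 genes for the Lkb1 complex, the AMPK-related kinases and the Crtc coactivators, 1 was called in the Lkb1 arm, Stk11 itself (4 unadjusted), and 0 in the RbpJk arm (5 unadjusted).

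The genes beside each of the 4 on the chromosome were read in the RefSeq order, 3 on each side. Of the 24 neighbours, 0 were called in the Lkb1 arm (3 unadjusted), 0 in the RbpJk arm (4 unadjusted) and 0 for the difference (2 unadjusted). Over all genes 0.962%, 1.68% and 0.181% were called and 8.05%, 14.5% and 9.13% had an unadjusted p under 0.05, so that with 24 genes a count of 0 calls says little about the neighbours. On chromosome 7, Lilra6, Lair1, 9430041J12Rik, D030047H15Rik, Leng8 and Leng9 around Ttyh1 changed by -0.28 to 0.25 in the Lkb1 arm. On chromosome 15, Erich5, Rida, Pop1, 4930413F20Rik, Kcns2 and Osr2 around Nipal2 changed by -0.27 to -0.04. On chromosome X, Eras, Hdac6, Gata1, Was, Gm6787 and Wdr13 around Glod5 changed by -0.37 (Was) to 0.36 (Hdac6). Around Mmd2 on chromosome 5, Ap5z1, Radil, Papolb, Wipi2, Slc29a4 and Tnrc18 changed by -0.37 to 0.09 in the RbpJk arm, where Mmd2 was at -1.60.

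To find genes with the same pattern, each gene was centred on its own mean and the root mean square distance of its log2 values from each of the 4 genes was taken over the 12 arrays, among 18344 named genes. These genes were picked for their likeness, so their changes are given with no test. Ttyh1, Nipal2 and Glod5 were near each other (distances of 0.497 for Ttyh1 and Nipal2, 0.530 for Ttyh1 and Glod5, and 0.422 for Nipal2 and Glod5), whereas Mmd2 was at 0.691 to 1.03 from them. Nearest to Ttyh1 was Serpina6, the corticosteroid-binding globulin, at 0.423, with a level of 10.55 ± 0.09 in LKB1 KO against 8.58 ± 0.29 in LKB1 WT. It differed from Ttyh1 in the RbpJk arm, where its change was -0.92. Slpi, a protease inhibitor (0.592), and Gucy2c, the guanylate cyclase receptor of guanylin (0.624), also followed Ttyh1 in the Lkb1 arm (3.16 and 1.66), with RbpJk changes of 1.33 and 0.52.

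Glod5 had Guca2b (0.550) and Gucy2c (0.573) among its 5 nearest genes, that is, the hormone uroguanylin and its receptor. Guca2b changed by 1.65 in the Lkb1 arm and 0.36 in the RbpJk arm. Cdc42ep5, an effector of the GTPase Cdc42, was the fifth (0.595). Nipal2 had smaller companions, at distances of 0.337 to 0.360: Dab1, an adaptor of reelin signalling, Baiap2l2, Cltrn (collectrin, a partner of amino acid transporters), the protocadherin Pcdh20, and Dapl1, with changes of 0.90, 0.96, 0.86, 1.26 and 1.27 in the Lkb1 arm and of -0.36 to 0.15 in the RbpJk arm.

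Mmd2 had a separate set. Nearest were Ppp1r10 (0.365) and Ppp1r3c (0.381), a nuclear and a glycogen-targeting subunit of protein phosphatase 1, then Lrtm1 (0.383), Egln3, a prolyl hydroxylase of hypoxia-inducible factor (0.410), and Vgll4, a cofactor of Tead factors (0.415). Their RbpJk changes were -1.37, -1.54, -1.18, -0.98 and -0.82. In the Lkb1 arm they were -0.03, -0.36, -0.37, 0.78 and 0.07, so of the 5 only Egln3 was above its controls by more than Mmd2. Ranked by Pearson correlation in place of distance, 1 of the 5 nearest genes was shared for each of the 4 genes, so which genes come nearest depends on the measure.

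**Figure D4:**
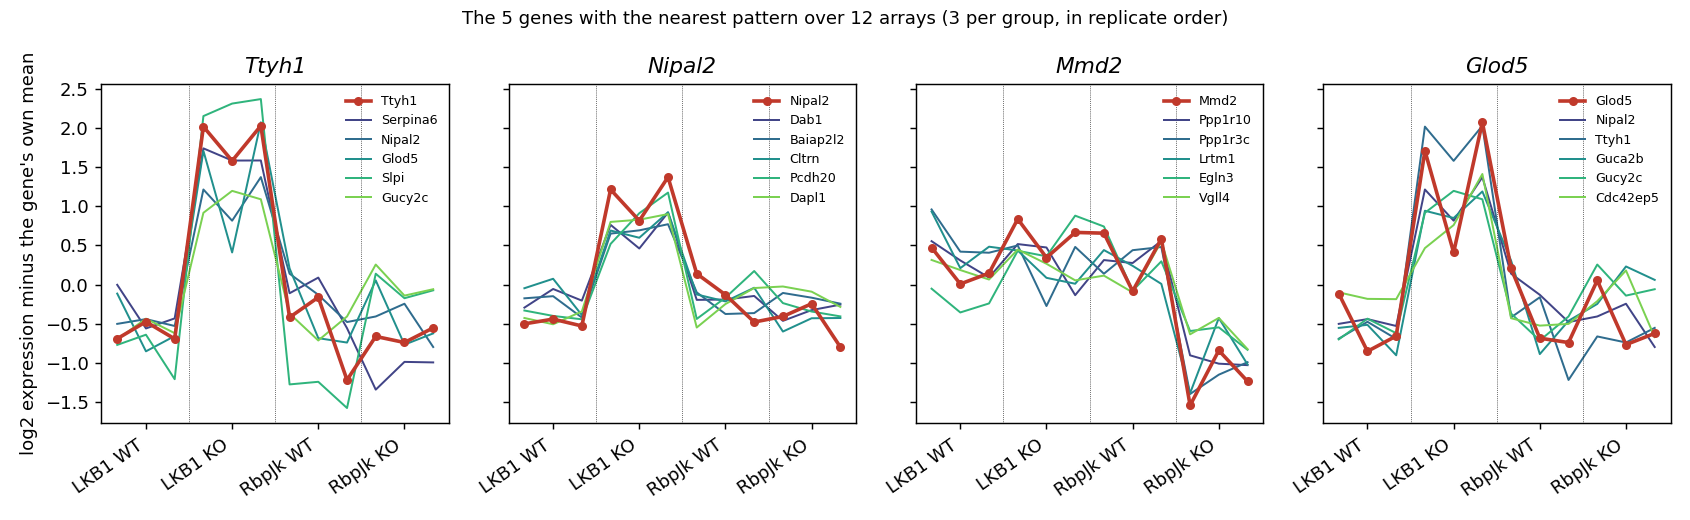
Log2 expression minus the gene's own mean (vertical axis) on the 12 arrays in replicate order within each group (horizontal axis, dotted lines between groups), for each of the 4 genes in red and the 5 genes nearest to it. In the panels of Ttyh1, Nipal2 and Glod5 the lines peak in LKB1 KO, and in the panel of Mmd2 they drop in RbpJk KO.

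Markers of other cells were read beside these levels. Defining hepatocyte genes were high on all arrays, 0 of 10 were called in the Lkb1 arm, and in the RbpJk arm the transcription factor Hnf4a was called higher (0.64, adjusted p = 0.00475). As Ttyh1 is a glial gene, 8 measured genes of glia and Schwann cells were examined. Their summed level, on the log2 scale, was 7.93 to 8.33 in LKB1 WT and 8.10 to 8.17 in LKB1 KO, and 0 of 8 were called in that arm. Sox10, which defines these cells, was between 4.11 and 4.57 on all arrays. In RbpJk KO livers the sum was 8.63 to 8.93 against 7.99 to 8.09 in RbpJk WT. The share of all genes with RbpJk KO arrays above all RbpJk WT arrays is not given, so nothing is read from this separation. The sum is weighted to the brightest genes, Fabp7 (mean of 6.17 in RbpJk WT and 7.37 in RbpJk KO) and Erbb3 (6.46 and 7.29). The next brightest in that arm was Ncam1 (5.14 and 5.20). Of the 8, Fabp7 (1.19, adjusted p = 0.00475) and Erbb3 (0.83, adjusted p = 0.0119) were called higher in the RbpJk arm. The rest were not called, among them Sox10 (0.18, adjusted p = 0.621). The lists of hepatocytes, macrophages and endothelium did not overlap in range between the groups of the Lkb1 arm, where 0.962% of all genes were called. Hepatocyte genes summed to 15.25 to 15.28 in LKB1 KO against 15.33 to 15.37 in LKB1 WT (0 called, median change -0.05). The share of all genes with LKB1 KO arrays below all LKB1 WT arrays is not given, so nothing is read from these separations. The summed level of 10 Kupffer cell and macrophage genes was 11.20 to 11.31 in LKB1 KO against 11.52 to 11.64 in LKB1 WT (0 called, median change -0.40), and that of 8 endothelial genes was 11.10 to 11.25 against 11.40 to 11.49 (0 called, median -0.31). Of 7 stellate cell genes, 1 was called lower in that arm, Reln (-0.55, adjusted p = 0.0297), and the summed level was 10.43 to 10.64 in LKB1 KO against 10.60 to 10.71 in LKB1 WT. Among the lists in the RbpJk arm, where Mmd2 was low and 1.68% of all genes were called, the macrophage genes Cd5l (0.70, adjusted p = 0.0237) and Cd68 (0.57, adjusted p = 0.0224) were called higher. Adgre1 (-0.44, adjusted p = 0.0496), also a macrophage gene, the erythroid factor Klf1 (-0.66, adjusted p = 0.0274) and Igll1 of B cell precursors (-1.46, adjusted p = 0.000139) were called lower. The part of these cells in the levels of the 4 genes was not tested. The summed level of 6 cholangiocyte genes was 7.34 to 7.53 in LKB1 KO and 7.17 to 7.53 in LKB1 WT. Within the RbpJk arm it was 7.22 to 8.85 in WT and 7.16 to 7.70 in KO, and that of 5 pancreatic acinar genes was 6.97 to 10.93 in WT and 6.90 to 7.72 in KO, so both ranges overlapped. The highest value of each came from RbpJk WT 1, and the other RbpJk WT arrays reached at most 7.51 and 7.17.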

How the data were processed

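Total RNA of 12 livers (4 groups of 3) was labelled with biotin by an Affymetrix whole-transcript protocol. The authors deposited log2 values, 1 for each probe set, from 1.18 to 12.97, with array medians from 4.84 to 5.01. The submitters' processing notes name Partek, and no source used here gives the background correction or normalization. Of 25206 probe sets, 23185 had 1 symbol, 0 several and 2021 none, and all 23185 matched RefSeq (GRCm38.p6) by Entrez number.

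Groups came from the sample titles, and replicates were numbered in entry order. With limma 3.58.1 (R 4.3.3), the 12 arrays were fitted together on 4 group means, with 8 residual degrees of freedom and 5.88 prior ones, an intensity trend and Benjamini-Hochberg adjustment, after a test on simulated data. The contrasts were KO minus WT in each arm and their difference. A second model added Xist class (log2 level above or below 8). The methods name no test for the arrays, and the t-test that they use for other data was an alternative.

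The 4 genes and the lists were chosen with earlier results of these data known. Named besides these were, by rule, the targeted and sex-linked genes, up to 3 called genes of each list and contrast with the smallest p or else the 2 with changes furthest from 0, the 3 nearest genes on each side, the 5 nearest patterns and the neighbours in the order of the difference. Other genes named (Ctrb1, Glo1, Pck1, G6pc, Sox10, Fabp7, Erbb3, Hnf4a, Reln, Cd5l, Cd68, Adgre1, Klf1, Igll1, Adipor1, Adipor2, Kdm5d and Uty) were added after their values were seen. The number of arrays limits the precision.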

Additional observations from a re-analysis of the deposited data

Results flagged for a closer look

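A screen looked for every KO array on one side of its control mean in the Lkb1 arm and on the other side in the RbpJk arm. It covered only the 4 genes and the genes that the naming rule had picked from the lists and neighbours by p or size of change. Among these, 7 genes met it. The rest of the lists, where further genes such as Lrrc8a meet it, and all other genes were not screened, so nothing is read from the count. For Nipal2 (difference of 1.96) and Mmd2 (2.0) that difference is what chose the genes, so it is given as a description only. For the other 5 the limma test of the difference did not pass: Cftr 1.49 (adjusted p = 0.547), Clcn7, a lysosomal chloride transporter, -0.69 (adjusted p = 0.376), Ano6 -0.55 (adjusted p = 0.282), Ppargc1a 0.81 (adjusted p = 0.350) and Leng8, the second gene after Ttyh1 on chromosome 7, -0.40 (adjusted p = 0.477). The value of Cftr rests on RbpJk WT arrays that spread widely (3.56 ± 1.51, SD), with the highest at 5.27 against a mean of 2.48 in RbpJk KO. The summed level of the cholangiocyte genes, which include Cftr, was highest on RbpJk WT 1 (8.85), the array that stood apart.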

How the results depend on the processing

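Of 212 recomputed changes of the 4 genes, 204 moved by less than the spread between replicates, 8 moved by more, and 0 of the larger changes reversed. Part of the 204 could not move by design. Leaving out an array of the other arm, or fitting an arm alone, returns the same change for that arm. Xist class as a covariate returns the same difference. The near-zero RbpJk changes took the opposite sign in 3 of 18 alternatives for Ttyh1 and in 7 of 18 for Glod5, counts that include such fixed settings. Arrays of 1 Xist class gave -0.49 (RbpJk arm) and 3.14 (difference) for Ttyh1, 1.87 (Lkb1 arm) and 2.22 (difference) for Nipal2, -1.12 (RbpJk arm) and 1.58 (difference) for Mmd2 and 2.62 (Lkb1 arm) for Glod5, and Xist class as a covariate gave 0.67 for Mmd2 in the Lkb1 arm. The cause was not tested.

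Leaving out each array in turn gave, for the Lkb1 arm, the RbpJk arm and the difference, 2.42 to 2.65, -0.36 to 0.17 and 2.33 to 2.86 for Ttyh1, 1.51 to 1.79, -0.49 to -0.17 and 1.80 to 2.12 for Nipal2, 0.30 to 0.54, -1.83 to -1.43 and 1.84 to 2.24 for Mmd2, and 1.60 to 2.44, -0.29 to 0.27 and 1.64 to 2.48 for Glod5. It gave 106 to 235, 194 to 465 and 15 to 57 called genes, and 0 to 1, 2 to 4 and 0 called relatives.

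Against 223 called genes in the Lkb1 arm, no intensity trend gave 131, array weights 512, Xist class as a covariate 132 and the methods' t-test 0. Against 390 in the RbpJk arm (259 higher, 131 lower), the 6 arrays of that arm alone gave 157, array weights 259, Xist class 187, median centring 590 (466 higher, 124 lower) and the methods' t-test 0. Against 42 for the difference, a filter on dim genes gave 66. That filter kept the 12330 genes above the array median on at least 3 arrays, and Nipal2 and Glod5 were not among them. Called relatives became 3 in the Lkb1 arm with array weights (Mmgt2, Slc41a3 and Mmd) and 1 with the dim filter (Mmgt2), and 0 in the RbpJk arm with the t-test. Calls were lost in 6 of 22 alternatives for Stk11 (the t-test and without LKB1 WT 1, 2 or 3 or LKB1 KO 2 or 3), 15 of 22 for Ano6, 3 for Etnppl and 1 each, the t-test, for Slc41a2 and Hagh. No paired analysis was possible because the labels give no number that links a KO to a WT array. Values carry no detection call, so dim levels such as those of Nipal2 and of most Glod5 arrays may be compressed.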
